A study of Homo sapiens with 5 samples.

Results

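The RAS, RAF, MEK and ERK genes encode the small GTPases and kinases that pass growth factor signals from the cell membrane to the nucleus. Those examined here were HRAS, NRAS, ARAF, BRAF, MAP2K1, MAP2K2 and MAPK3, chosen by gene symbol from the table of expression values. All 7 had a row and a value above 0 in every library, and they were 7 of the 13822 genes in the table. RH4 cells, an established line of human alveolar rhabdomyosarcoma, a skeletal muscle-like tumour, were transfected with 1 of 2 siRNAs at 30 nM using Dharmafect-1. The control was a scrambled siRNA (si-SCR, 3 libraries), and the other siRNA was directed at circVAMP3, a circular RNA formed by back-splicing of exons 3 and 4 of VAMP3 (si-circVAMP3, 2 libraries). Harvest took place 24 h after a change of medium, which itself came 24 h after transfection. Polyadenylated RNA was then sequenced with a kit that keeps the strand, and the study's methods call the libraries biological replicates. All values therefore come from 1 cell line and 1 siRNA per arm, without untransfected cells.

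RAS proteins are switches that are active when bound to GTP and inactive when bound to GDP. Active RAS recruits RAF kinases, RAF kinases phosphorylate the MEK kinases (encoded by MAP2K1 and MAP2K2), and MEK kinases phosphorylate the ERK kinases, which act on many proteins in the cytoplasm and nucleus. In rhabdomyosarcoma, mutations of RAS genes are known mainly from fusion-negative tumours, and much of the control of the cascade lies in phosphorylation, which RNA levels do not show.

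The siRNA that separates the groups is shown first, because every comparison rests on it. It has 21 bases, and its first 8 bases match the end of exon 4 of VAMP3 (chr1:7778162-7778169, plus strand, GRCh38). The next 11, in capitals, match the start of exon 3 (chr1:7777160-7777170, plus strand, GRCh38). The 19 bases without the overhang did not occur in the canonical linear VAMP3 transcript, whose coding sequence held 2 matches to bases 2 to 8 of the strand that pairs with circVAMP3.
si-circVAMP3: caucaucgGUGGUGGACAUuu

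Polyadenylated libraries hold mainly linear transcripts, so the circular RNA itself was not measured in these libraries. The study measured it by qRT-PCR and reports a strong fall with this siRNA. Linear VAMP3, which encodes a vesicle membrane protein, was at 36.4, 35.4 and 37.4 FPKM (fragments scaled to the length of the gene model and to the depth of the library) in the si-SCR libraries and at 29.4 and 30.2 FPKM in the si-circVAMP3 libraries. Both si-circVAMP3 libraries lay below all si-SCR libraries, with a log2 difference of -0.29 ± 0.04 (SE, adjusted p = 0.005 by limma). Leaving out si-circVAMP3 replicate 1 took this adjusted p to 0.052. Of 6 control and target genes 3 were called, VAMP3 among them, where 27.2% of all genes were. PPIA, often used for normalization, fell (log2 difference -0.34 ± 0.05, limma adjusted p = 0.00464), and 0.0513 was its adjusted p without si-circVAMP3 replicate 2. TBP rose (0.23 ± 0.07, limma adjusted p = 0.0432), and its call was lost without si-SCR replicate 1 or 2 (0.08 and 0.113) or either si-circVAMP3 library. The call of TBP was also lost without a variance trend (limma adjusted p = 0.0963) and after quantile normalization (0.0544). ACTB had a log2 difference of -0.16 ± 0.05 (limma adjusted p = 0.0686), but was called in 4 of 13 alternatives, with an adjusted p of 0.0031 after quantile normalization, over a range of 0.0031 to 0.274. GAPDH had a log2 difference of 0.09 ± 0.07 (limma adjusted p = 0.348). The control genes thus did not all hold one level between the groups.

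The libraries held RNA of rhabdomyosarcoma markers, though the labels do not state the fusion status and these values do not measure the fusion. Values were present for all 10 genes of a list of fusion-positive rhabdomyosarcoma markers. They ran from DES, which encodes the muscle filament protein desmin (mean 277 FPKM in si-SCR), down to CDH3 (1.05 FPKM). Their summed level was 1049, 1030 and 888 FPKM in the si-SCR libraries and 849 and 866 FPKM in the si-circVAMP3 libraries. The sum was thus lower in both si-circVAMP3 libraries, and of the 10 genes MYOG, a transcription factor of muscle differentiation, passed the test (log2 difference -0.76 ± 0.08, limma adjusted p = 0.00158). Without MYOG the sums were 873, 852 and 739 FPKM in si-SCR and 748 and 769 FPKM in si-circVAMP3, so that the groups overlapped. MYOD1, another such factor, had a difference of the opposite sign and was not called (0.20 ± 0.14, limma adjusted p = 0.322). Of 14 markers of other cell types (blood, endothelium, epithelium, fibroblasts and glia), 4 had a value, and their sum was 1.21 to 1.40 FPKM per library, with DCN the most abundant. Among these 4, PDGFRB was called higher (log2 difference 0.46 ± 0.13, limma adjusted p = 0.0434) at a level of 0.355 and 0.370 FPKM in the si-circVAMP3 libraries, and the call was lost when any 1 library was left out (adjusted p of 0.0774 to 0.182). The part of these shifts in the results on the cascade was not tested, and in bulk RNA fewer cells of a type and less RNA per cell cannot be told apart.

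Across the 13822 genes, limma on log2(FPKM + 0.1) called 3755 genes between si-circVAMP3 and si-SCR at an adjusted p below 0.05. This was 27.2% of the genes, with 1751 higher (12.7%) and 2004 lower (14.5%). Without si-SCR replicate 2 these were 918 higher and 1212 lower. Without either si-circVAMP3 library the higher calls fell by a larger factor than the lower calls. With an absolute log2 difference of at least 0.58 as a second condition, 795 genes (5.75%) were called, 226 higher (1.64%) and 569 lower (4.12%). A pseudocount of 1 in place of 0.1 gave 334 calls with both conditions. The number of calls was 1277 without si-circVAMP3 replicate 1, 1265 without si-circVAMP3 replicate 2 and 2130 without si-SCR replicate 2. The reads on these genes, recovered from the values, numbered 26441490, 25046768 and 24934487 in the si-SCR libraries, 18625463 in si-circVAMP3 replicate 1 and 28818756 in si-circVAMP3 replicate 2. The shallowest and the deepest library thus both belonged to the si-circVAMP3 group.

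Of the 7 genes of the cascade, 1 rose (MAP2K1), 1 fell (HRAS) and 5 were not called. The share called, 28.6%, was close to the 27.2% of all genes, and 1 gene in each direction stood against 12.7% and 14.5%. Only MAP2K1 met both conditions, as a gene that rose, where 1.64% of all genes did so upward and 4.12% downward. The groups did not overlap for 4 of the 7 genes (HRAS, ARAF, MAP2K1 and MAPK3), against 56.4% of all genes. By these shares the set did not stand apart from the other genes, and a difference of the set was not tested. The share of all genes was lower without either si-circVAMP3 library, where HRAS and MAP2K1 kept their calls. The median log2 difference of the 7 genes was 0.12, against 0.002 for all genes. What follows concerns the single members.

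**Figure D1:**
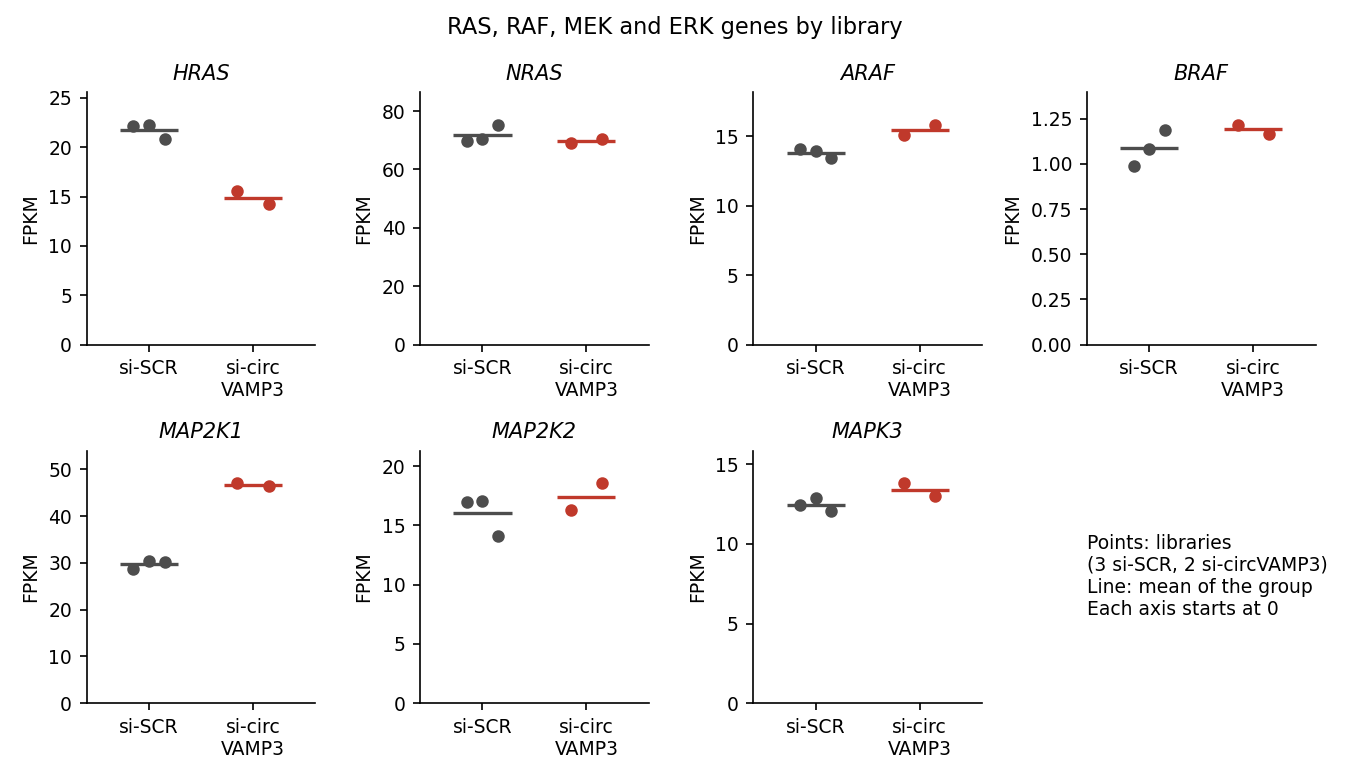
FPKM of the 7 genes in each library (vertical axis, starting at 0) for 3 si-SCR and 2 si-circVAMP3 libraries, with lines at the group means. HRAS is lower and MAP2K1 higher in both si-circVAMP3 libraries than in all si-SCR libraries, while the groups of NRAS, BRAF and MAP2K2 overlap.

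HRAS (ENSG00000174775, chr11:532242-537321, minus strand, GRCh38) encodes 1 of the RAS switches at the top of the cascade. Its level was 22.2, 22.3 and 20.8 FPKM in the si-SCR libraries and 15.5 and 14.2 FPKM in the si-circVAMP3 libraries. All si-SCR libraries were above both si-circVAMP3 libraries, and the gap between the groups was wider than the spread within either. HRAS fell by 0.55 on the log2 scale (SE 0.06, 95% interval -0.68 to -0.41, limma adjusted p = 0.00158), that is to 0.685 times the si-SCR level. Its values rested on 541 to 1113 reads per library. The difference ranked 717 from the lowest among the 13822 genes.

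NRAS (ENSG00000213281, chr1:114704469-114716771, minus strand, GRCh38), a close relative of HRAS with the same switch function, was the most abundant of the 7 genes. It was at 69.7, 70.4 and 75.2 FPKM in the si-SCR libraries and at 69.2 and 70.5 FPKM in the si-circVAMP3 libraries. The groups overlapped, with 1 si-circVAMP3 library below all si-SCR libraries and the other within their range. The log2 difference was -0.04 (95% interval -0.15 to 0.07, limma adjusted p = 0.578), so with 5547 to 8789 reads per library a shift as large as that of HRAS lay outside the interval.

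Within each library, the ratio of HRAS to NRAS does not depend on how libraries are scaled to each other. The log2 ratio was -1.65, -1.66 and -1.85 in the si-SCR libraries and -2.15 and -2.30 in the si-circVAMP3 libraries. The groups did not overlap, and the ratio was lower by a log2 difference of -0.51 between the group means (exact two-sided permutation p = 0.1, the smallest that 10 choices of libraries allow, and 0.2 adjusted over 4 ratios). HRAS made up 23.3% of the summed HRAS and NRAS level in si-SCR and 17.6% in si-circVAMP3. With 2 libraries in an arm, no permutation test of such a ratio can pass the threshold.

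ARAF (ENSG00000078061, chrX:47561205-47571908, plus strand, GRCh38) encodes a RAF kinase that RAS recruits to the membrane. It was at 14.1, 13.9 and 13.4 FPKM in the si-SCR libraries and at 15.1 and 15.8 FPKM in the si-circVAMP3 libraries. Both si-circVAMP3 libraries were above all si-SCR libraries, but the difference missed the threshold (log2 difference 0.16, 95% interval 0.04 to 0.28, limma adjusted p = 0.0547). The adjusted p was 0.0497 with genes of low level left out, over a range of 0.0497 to 0.277 across the alternatives, so the call of ARAF was not settled by these libraries. It was also called, at an adjusted p just under 0.05, after median-of-ratios scaling.

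BRAF (ENSG00000157764, chr7:140719327-140924929, minus strand, GRCh38) encodes the RAF kinase with the strongest activity towards MEK. Its level was 0.987, 1.08 and 1.19 FPKM in the si-SCR libraries and 1.22 and 1.17 FPKM in the si-circVAMP3 libraries. The groups overlapped, with 1 si-circVAMP3 library inside the si-SCR range, and the log2 difference was 0.13 with a 95% interval from -0.15 to 0.40 (limma adjusted p = 0.458). The FPKM was computed over a gene model of 23432 bases, against 3535 bases for ARAF, and rested on 528 to 787 reads per library. The log2 ratio of ARAF to BRAF was 3.71, 3.57 and 3.39 in si-SCR and 3.53 and 3.65 in si-circVAMP3. These ranges overlapped (exact two-sided permutation p = 0.9, also 0.9 adjusted over 4 ratios).

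MAP2K1 (ENSG00000169032, chr15:66386837-66491656, plus strand, GRCh38) encodes MEK1, a kinase that phosphorylates ERK on both a threonine and a tyrosine. Its level was 28.7, 30.4 and 30.2 FPKM in the si-SCR libraries and 47.0 and 46.3 FPKM in the si-circVAMP3 libraries. Both si-circVAMP3 libraries were far above every si-SCR library, and replicates of a group lay within 1.66 FPKM of each other. MAP2K1 rose by a log2 difference of 0.65 (SE 0.04, 95% interval 0.54 to 0.75, limma adjusted p = 0.000355), that is 1.57-fold with an interval of 1.46 to 1.68. This was the largest absolute difference of the 7 genes, and it ranked 204 from the highest among the 13822 genes. Between 2836 and 5017 reads per library lay behind these values.

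MAP2K2 (ENSG00000126934, chr19:4090321-4124122, minus strand, GRCh38) encodes MEK2, which has the same substrates as MEK1. It was at 16.9, 17.0 and 14.1 FPKM in the si-SCR libraries and at 16.3 and 18.5 FPKM in the si-circVAMP3 libraries. The groups overlapped, si-SCR replicate 3 was the lowest and si-circVAMP3 replicate 2 the highest, and the log2 difference was 0.12 with a 95% interval from -0.11 to 0.35 (limma adjusted p = 0.402). The interval of MAP2K2 did not reach the lower bound of the interval of MAP2K1.

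The MEK pair was thus described by its ratio as well. The log2 ratio of MAP2K2 to MAP2K1 was -0.76, -0.83 and -1.09 in the si-SCR libraries and -1.52 and -1.32 in the si-circVAMP3 libraries. Both si-circVAMP3 values were below every si-SCR value, with a difference of -0.53 between the means (exact two-sided permutation p = 0.1, 0.2 adjusted over 4 ratios). The summed FPKM of both genes was 45.6, 47.4 and 44.4 in si-SCR and 63.3 and 64.9 in si-circVAMP3, without overlap. MAP2K1 made up 65.0% of the sum in si-SCR and 72.8% in si-circVAMP3. The ratio, the sum and the share all contain MAP2K1, so they largely restate its rise and are no separate results.

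**Figure D2:**
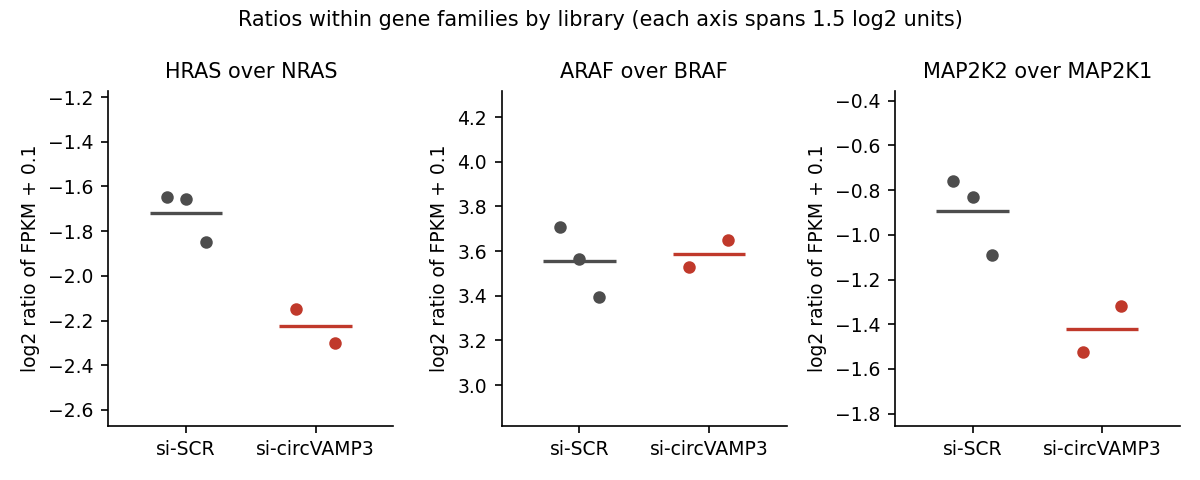
log2 ratio of FPKM + 0.1 of gene pairs of a family within each library (vertical axis, each spanning 1.5 log2 units), for 3 si-SCR and 2 si-circVAMP3 libraries with lines at the means. The ratios of HRAS to NRAS and of MAP2K2 to MAP2K1 are lower in both si-circVAMP3 libraries than in all si-SCR libraries, and those of ARAF to BRAF overlap.

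MAPK3 (ENSG00000102882, chr16:30114105-30123506, minus strand, GRCh38) encodes ERK1, the last kinase of the cascade. Its level was 12.4, 12.9 and 12.1 FPKM in the si-SCR libraries and 13.8 and 13.0 FPKM in the si-circVAMP3 libraries. The si-circVAMP3 libraries lay just above the si-SCR libraries, and replicates of a group differed by about as much as the groups did. The log2 difference was 0.11 with a 95% interval from -0.02 to 0.23 (limma adjusted p = 0.192), so a fall of its RNA by the size seen for HRAS was outside the interval.

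**Figure D3:**
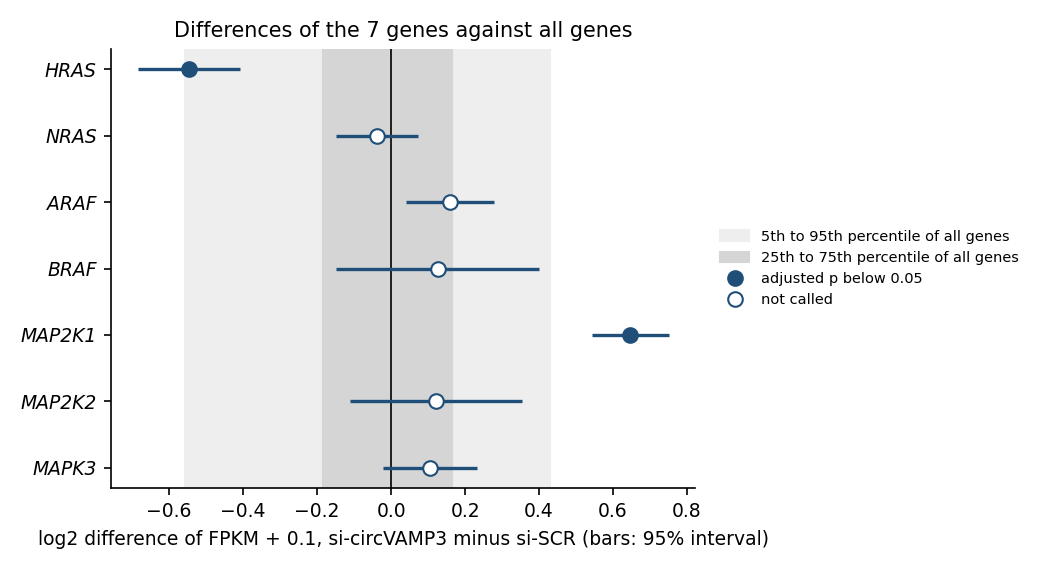
log2 difference of si-circVAMP3 minus si-SCR for each of the 7 genes (horizontal axis) with 95% limma intervals, filled where the adjusted p is below 0.05, over bands for the percentiles of all 13822 genes. MAP2K1 at 0.65 lies above the outer band, HRAS at -0.55 lies at its lower edge, and the other 5 points lie within the inner band.

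The order of the levels per length changed in the middle of the list. In si-SCR it ran from NRAS (71.8 ± 3.0 FPKM, SD, n = 3) over MAP2K1 (29.8 ± 0.93), HRAS (21.8 ± 0.81), MAP2K2 (16.0 ± 1.65), ARAF (13.8 ± 0.34) and MAPK3 (12.5 ± 0.39) to BRAF (1.09 ± 0.10), and the replicates of no neighbours in this order overlapped. In si-circVAMP3 NRAS (69.9 ± 0.96 FPKM, SD, n = 2) and MAP2K1 (46.7 ± 0.46) came first again, but HRAS (14.9 ± 0.92) stood below MAP2K2 (17.4 ± 1.58) and ARAF (15.4 ± 0.52). The ranges of ARAF and HRAS overlapped there, so their order was not resolved, and MAPK3 (13.4 ± 0.54) and BRAF (1.19 ± 0.04) came last as before.

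The genes whose profile over the 5 libraries was most like that of MAP2K1 were WEE1, ARRDC3 and CTSA, among 6754 genes with a mean of at least 5 FPKM. Their root mean square distances from the MAP2K1 profile were 0.0398, 0.0407 and 0.0409 on the log2 scale. WEE1, a kinase that inhibits entry into mitosis, was at 12.6, 12.5 and 13.5 FPKM in si-SCR and 20.0 and 19.9 FPKM in si-circVAMP3. The level of ARRDC3, an arrestin-like protein, was 5.40, 5.40 and 5.36 FPKM in si-SCR and 8.59 and 8.79 FPKM in si-circVAMP3. CTSA, a lysosomal carboxypeptidase, was at 31.1, 32.7 and 31.6 FPKM in si-SCR and 51.5 and 52.0 FPKM in si-circVAMP3. Both si-circVAMP3 libraries were above every si-SCR library in each of the 3 genes, which follows from their choice by likeness to MAP2K1 over the same libraries and is no separate result.

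The surrounding pathway was described with 9 lists of genes, of which 116 of 123 genes had values. Of these 116 genes, 12 rose, 24 fell and 80 were not called. The share called was 31.0%, against 27.2% of all genes, and the median log2 difference was -0.02, against 0.002 for all genes. The calls numbered 5 higher without si-circVAMP3 replicate 1 and also 5 without si-circVAMP3 replicate 2, and the lower calls numbered 11 and 9 in these fits and 14 without si-SCR replicate 2.

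**Figure D4:**
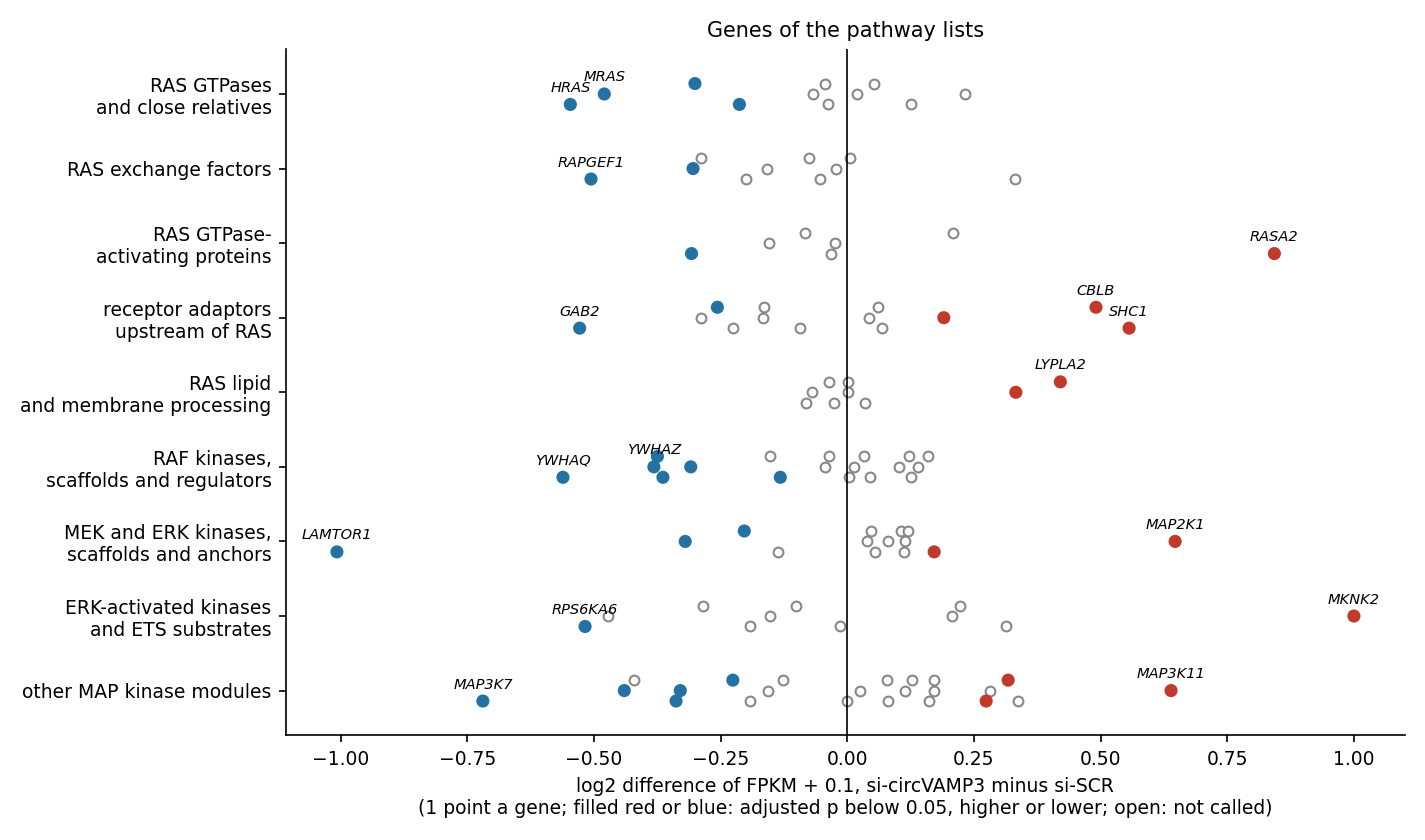
log2 difference of si-circVAMP3 minus si-SCR (horizontal axis) for the genes of the 9 pathway lists (rows), 1 point a gene, filled where the limma adjusted p is below 0.05. LAMTOR1 at -1.01 and MKNK2 at 1.00 lie farthest from 0, and most genes of each list are not called.

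Among 11 RAS GTPases and close relatives, 4 fell and 7 were not called, where 14.5% of all genes were called lower. Besides HRAS, those that fell included MRAS, which forms a complex with SHOC2 and protein phosphatase 1 that acts on RAF, and RALB, a GTPase on another branch below RAS. MRAS was at 13.8, 14.3 and 11.9 FPKM in si-SCR and 9.65 and 9.33 FPKM in si-circVAMP3, a log2 difference of -0.48 ± 0.08 (limma adjusted p = 0.00791). RALB had a log2 difference of -0.30 ± 0.08 (limma adjusted p = 0.029), and its call was lost without a variance trend (0.0643) and with a replicate block (0.0534). The call of MRAS was lost without either si-circVAMP3 library (adjusted p of 0.053 and 0.0653), and that of RALB without si-SCR replicate 1, si-SCR replicate 2 or si-circVAMP3 replicate 2 (0.0549, 0.0648 and 0.165).

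Exchange factors load RAS family proteins with GTP, and 2 of 10 fell. The share that fell, 20.0%, stood against 14.5% of all genes, and none rose, against 12.7%. RAPGEF1, an exchange factor for the relative RAP, was at 15.7, 14.6 and 14.1 FPKM in si-SCR and 10.4 and 10.4 FPKM in si-circVAMP3 (log2 difference -0.51 ± 0.06, limma adjusted p = 0.002). SOS2, which binds GRB2 and loads RAS, had a log2 difference of -0.30 ± 0.07 (limma adjusted p = 0.0209, or 0.0562 with a replicate block), and its relative SOS1 one of 0.01 ± 0.08 (limma adjusted p = 0.965). The call of SOS2 was lost without si-SCR replicate 2 and without either si-circVAMP3 library, at adjusted p of 0.0803, 0.114 and 0.104.

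GTPase-activating proteins return RAS to the inactive state, and of 7 genes 1 rose and 1 fell, a share of 28.6% called against 27.2% of all genes. RASA2 was at 3.55, 3.93 and 3.93 FPKM in si-SCR and 6.87 and 6.91 FPKM in si-circVAMP3, so that the groups were far apart (log2 difference 0.84 ± 0.07, limma adjusted p = 0.000847). RASA3 had a log2 difference of -0.31 ± 0.05 (limma adjusted p = 0.00807), and 0.0705 was its adjusted p without si-circVAMP3 replicate 1. NF1, which encodes neurofibromin, was at -0.03 ± 0.06 (limma adjusted p = 0.746).

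Of 13 adaptors that link receptors to RAS, 3 rose and 2 fell, where 12.7% and 14.5% of all genes did. SHC1, which couples phosphorylated receptors to GRB2, was at 45.7, 46.9 and 41.6 FPKM in si-SCR and 68.2 and 63.4 FPKM in si-circVAMP3 (log2 difference 0.56 ± 0.06, limma adjusted p = 0.00188). CBLB, a ubiquitin ligase that acts on receptors, rose as well (0.49 ± 0.07, limma adjusted p = 0.00328). GAB2 (-0.53 ± 0.13, limma adjusted p = 0.0279, or 0.059 with a replicate block) and CRKL (-0.26 ± 0.04, limma adjusted p = 0.00626) fell, GAB2 at levels under 0.5 FPKM. Their calls were lost without either si-circVAMP3 library, with adjusted p of 0.0953 and 0.147 for GAB2 and 0.0555 and 0.054 for CRKL, and that of GAB2 also without si-SCR replicate 1 or 2 (0.062 and 0.0923). GRB2, named after its value was seen, was the last of the 5 (0.19 ± 0.04, limma adjusted p = 0.0136, or 0.0555 without a variance trend). Without si-SCR replicate 2 its adjusted p was 0.0505, and without either si-circVAMP3 library it was 0.0739 and 0.104.

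Lipid modification anchors RAS proteins in membranes, and of 9 genes of this process 2 rose. These 22.2% stood against the 12.7% of all genes that were called higher, and none fell, against 14.5%. LYPLA2, a thioesterase that removes palmitate, had a log2 difference of 0.42 ± 0.09 (limma adjusted p = 0.0167), and RCE1, the protease that trims the prenylated end of RAS, one of 0.33 ± 0.07 (limma adjusted p = 0.0133). Without either si-circVAMP3 library the adjusted p was 0.109 and 0.0826 for LYPLA2 and 0.1 and 0.0682 for RCE1. FNTA, a subunit of the farnesyltransferase, was at 0.00 ± 0.06 (limma adjusted p = 0.981).

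Among 18 RAF kinases, scaffolds and regulators, 6 fell and 12 were not called, where 14.5% of all genes were called lower. Of the genes that fell, 3 encode 14-3-3 proteins, which bind phosphorylated RAF. YWHAQ was at 106, 107 and 103 FPKM in si-SCR and 71.0 and 71.2 FPKM in si-circVAMP3, with a log2 difference of -0.56 ± 0.04 (limma adjusted p = 0.00036). YWHAZ (-0.38 ± 0.04, limma adjusted p = 0.00154) and YWHAB (-0.36 ± 0.04, limma adjusted p = 0.00256) also fell, while YWHAE, YWHAG and YWHAH were not called as deposited or under 3 other scalings between libraries (limma adjusted p of 0.191 to 0.97).

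The other genes of this list that fell were PPP1CA, PPP1CC and PPP1CB, the catalytic subunits of protein phosphatase 1, which with SHOC2 and MRAS removes an inhibitory phosphate from RAF. PPP1CA was at 51.6, 57.0 and 54.3 FPKM in si-SCR and 42.0 and 41.7 FPKM in si-circVAMP3 (log2 difference -0.37 ± 0.05, limma adjusted p = 0.00344). PPP1CC (-0.31 ± 0.05, limma adjusted p = 0.00701) and PPP1CB (-0.13 ± 0.04, limma adjusted p = 0.0459) were named after their values were seen. Both lost their calls without either si-circVAMP3 library, with adjusted p of 0.0549 and 0.0595 for PPP1CC and 0.158 and 0.219 for PPP1CB. PPP1CB lost its call also without si-SCR replicate 1 or 2 (0.0942 and 0.14) and with median-of-ratios scaling (0.0508). Its call was lost as well without a variance trend (limma adjusted p = 0.131) and with a replicate block (0.0786). SHOC2 itself was at 0.10 ± 0.05 (limma adjusted p = 0.198).

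In the list of MEK and ERK kinases, scaffolds and anchors, 2 of 14 genes rose and 3 fell, so that 35.7% were called, against 27.2% of all genes. LAMTOR1, the lysosomal anchor of the complex in which LAMTOR2 and LAMTOR3 hold MEK1 and ERK, was at 20.9, 23.7 and 23.5 FPKM in si-SCR and 10.9 and 11.5 FPKM in si-circVAMP3. All si-SCR libraries were far above both si-circVAMP3 libraries, and LAMTOR1 fell by 1.01 on the log2 scale (SE 0.07, limma adjusted p = 0.000367). LAMTOR2 (0.08 ± 0.07, limma adjusted p = 0.417) and LAMTOR3 (0.11 ± 0.07, limma adjusted p = 0.297) were not called. PEA15, which binds ERK in the cytoplasm, fell (-0.32 ± 0.06, limma adjusted p = 0.011), as did PPP2CB, a catalytic subunit of protein phosphatase 2A (-0.20 ± 0.04, limma adjusted p = 0.0135). The scaffold IQGAP1, named after its value was seen, rose beside MAP2K1 (0.17 ± 0.05, limma adjusted p = 0.0338). Without a variance trend the limma adjusted p was 0.0837 for IQGAP1 and 0.0508 for PPP2CB. With a replicate block it was 0.0559 for IQGAP1 and 0.0509 for PEA15. Without si-circVAMP3 replicate 2 the adjusted p was 0.0795 for PEA15, 0.098 for PPP2CB and 0.181 for IQGAP1. Without si-circVAMP3 replicate 1 it was 0.077 for PPP2CB and 0.127 for IQGAP1, without si-SCR replicate 2 it was 0.0567 and 0.0867, and without si-SCR replicate 1 it was 0.0785 for IQGAP1.

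Of 11 kinases and ETS factors activated by ERK, 1 rose and 1 fell, a share of 18.2% called against 27.2% of all genes. MKNK2, a kinase that phosphorylates the cap-binding factor EIF4E, was at 8.55, 7.59 and 6.57 FPKM in si-SCR and 15.4 and 14.9 FPKM in si-circVAMP3. Both si-circVAMP3 libraries were well above every si-SCR library (log2 difference 1.00 ± 0.11, limma adjusted p = 0.00154). RPS6KA6, a kinase of the RSK family, had a log2 difference of -0.52 ± 0.12 (limma adjusted p = 0.0188), and its call was lost without si-SCR replicate 2 (0.0683), si-circVAMP3 replicate 1 (0.124) or si-circVAMP3 replicate 2 (0.0548). The related MKNK1 was at 0.21 ± 0.08 (limma adjusted p = 0.0885).

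Outside the RAS to ERK line, 3 of 23 genes of other MAP kinase modules rose and 5 fell, which made 34.8% called against 27.2% of all genes. MAP3K7, which encodes the kinase TAK1, was at 38.6, 41.4 and 40.7 FPKM in si-SCR and 24.5 and 24.3 FPKM in si-circVAMP3, a clear gap (log2 difference -0.72 ± 0.05, limma adjusted p = 0.000286). MAP3K11, a mixed-lineage kinase, rose (0.64 ± 0.14, limma adjusted p = 0.0188). MAP2K7 (-0.44 ± 0.10, limma adjusted p = 0.022), which activates JNK, and MAP2K3 (-0.34 ± 0.06, limma adjusted p = 0.0111), which activates p38, fell, so that among the MAP2K genes named here MAP2K1 was the one that rose. The adjusted p without si-circVAMP3 replicate 2 was 0.104 for MAP3K11, 0.101 for MAP2K7 and 0.0868 for MAP2K3. The calls of MAP3K11 and MAP2K7 were also lost without si-circVAMP3 replicate 1 (0.103 and 0.122), and that of MAP2K7 without si-SCR replicate 2 (0.0724).

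Sequence matches to the siRNA were counted because an siRNA strand can pair with other transcripts through its bases 2 to 8. Those bases of the strand that pairs with circVAMP3 match the letters GTGGACA in a transcript. This motif, searched on the transcript strand, lay in the 3′ UTR of 1410 of 12006 canonical transcripts (11.7%). The genes with it had a median log2 difference of -0.12, against 0.002 for all genes, and 30.9% of them were called lower and 6.5% higher, where 14.5% and 12.7% of all genes were. In the coding sequence the motif lay in 2728 of 12031 transcripts (22.7%), whose genes had a median of -0.07, with 23.7% called lower and 7.6% higher. The letters CGATGAT, which match bases 2 to 8 of the printed strand, lay in 221 3′ UTRs (1.8%), whose genes had a median of -0.003. Of these genes 17.2% were called lower and 10.0% higher. In the coding sequence CGATGAT lay in 595 transcripts (4.9%), whose genes had a median of -0.012, with 15.8% called lower and 13.3% higher. None of the 7 genes of the cascade held GTGGACA or CGATGAT in the coding sequence or 3′ UTR of the canonical transcript. Of the 12006 genes with both regions, 31.6% held GTGGACA in either. The 3′ UTR searched had 286 bases for HRAS and 929 bases for MAP2K1. Other transcripts and other ways of pairing were not searched, and indirect effects of the siRNA on these genes were not tested. Of the pathway genes, 7 of the 24 that fell, 0 of the 12 that rose and 9 of the 80 that were not called held GTGGACA in the 3′ UTR. In the coding sequence 12, 2 and 15 of them held it, and in either region 18 of the 24, 2 of the 12 and 22 of the 80. Among the 12006 genes with both regions, 52.6% of those called lower, 16.8% of those called higher and 30.2% of those not called held it in either region, and 24.3%, 5.5% and 10.3% in the 3′ UTR. Of the RAF regulators that fell, YWHAQ held GTGGACA in the 3′ UTR, and YWHAZ, YWHAB, PPP1CA, PPP1CB and PPP1CC held it in the coding sequence. YWHAE, YWHAG, YWHAH and SHOC2, which were not called, held it in neither region. Other uncalled genes of that list did hold it, among them CDC37 and KSR1 in the coding sequence. The part of these matches in the falls was not tested. Outside the pathway lists, PPIA, ACTB and MYOG each held 1 GTGGACA match in the coding sequence, and GAPDH and TBP held none in either region. PDGFRB, which was called higher, and the muscle marker CHRNA1, which was not called, also held 1 each in the coding sequence. Whether these matches had a part in the shifts of the control and marker genes was not tested. The 3′ UTR matches of the 4 pathway genes with such a match that fell by the largest amounts are printed with 9 bases on either side, the motif in capitals, as a description and not as sites of action. They lie at chr6:90516319-90516343 (minus strand) for MAP3K7, chr2:9583979-9584003 (minus strand) for YWHAQ, chrX:84059650-84059674 (minus strand) for RPS6KA6 and chr3:138403302-138403326 (plus strand) for MRAS, all in GRCh38.
MAP3K7: tttctcatgGTGGACAtacaatttt
YWHAQ: tggaataaaGTGGACAttttaaaac
RPS6KA6: taattttacGTGGACAattatagag
MRAS: taacctaatGTGGACAccatccaga

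**Figure D5:**
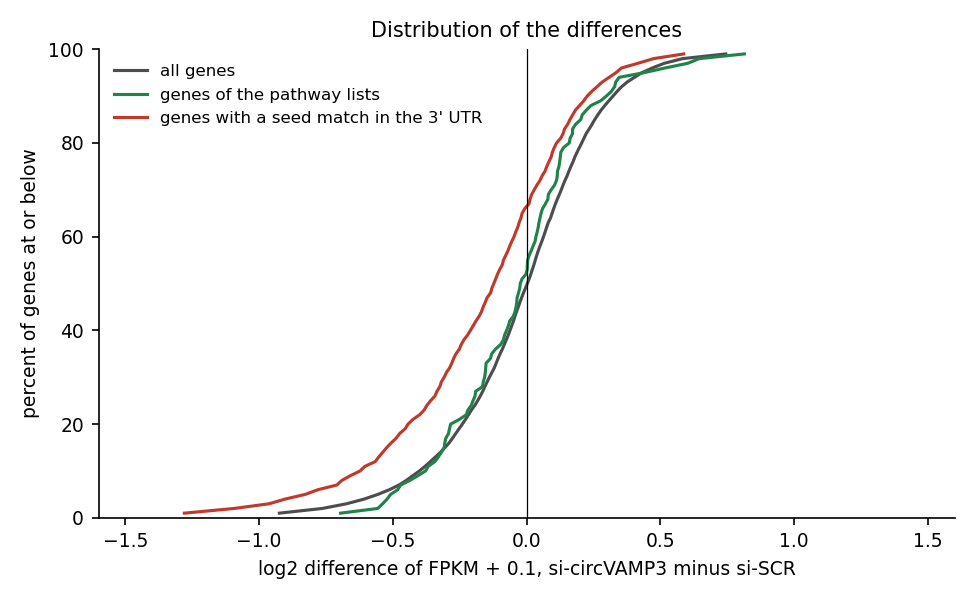
Percent of genes (vertical axis) at or below a given log2 difference of si-circVAMP3 minus si-SCR (horizontal axis), drawn at the 1st to 99th percentile. The curve of the 1410 genes with GTGGACA in the 3′ UTR lies to the left of that of all genes, with a median of -0.12, and that of the 116 pathway genes lies near it, with a median of -0.02.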

How the data were processed

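The authors deposited 1 table of FPKM values for 5 libraries. Per the study's methods and the submitters' processing notes, reads were trimmed with Trimmomatic, aligned to GRCh38 (Ensembl 99) with STAR 2.5.2b, counted by strand with htseq-count, filtered for low counts by the authors, and converted to FPKM by the authors with edgeR. The members and lists were chosen with earlier results of these data known. Symbols and positions came from GENCODE 44, and 13783 of the 13822 IDs had a symbol. No value was 0, and no gene was removed. log2(FPKM + 0.1) was fitted with limma 3.58.1 (R 4.3.3, lmFit and eBayes with a trend), and p-values were adjusted by the Benjamini-Hochberg method over all genes, so a fold is on the log2(FPKM + 0.1) scale and understates changes of low genes. The fit was tested on simulated data. The exact permutation test ran over the 10 choices of 2 of the 5 libraries. Whole reads were recovered from the FPKM of 100% of genes (tolerance 0.001 read), as the numbers that gave the GENCODE length (68.8% of genes) or else the smallest that gave a gene model of whole bases. By these reads 616 genes lay below 1 CPM in 3 or more libraries, 412 of them at the GENCODE length, which the stated filter (CPM below 1 in at least 3 samples) would have removed. For genes without a matching length the reads may be a fraction of the true number. They gave the reads per library and, after seeing the data, a limma-voom fit that called 4222 genes. Read numbers give counting precision only. Alternatives were a pseudocount of 1, a minimum mean of 1 FPKM, no variance trend, other scalings between libraries, a replicate block and leaving out each library. Replicates differed by more than sampling noise (chi-square of 3.47 to 10.7 per degree of freedom), and no values were identical between them. This chi-square was 10.7 and 7.06 for si-SCR replicate 3 against si-SCR replicates 1 and 2, and 3.85 between si-SCR replicates 1 and 2. Where replicates share cultures or days, which was not stated, p-values measure only the spread between these libraries.

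From each pathway list, up to 4 called genes with the largest absolute log2 difference were named, with VAMP3, ACTB and GAPDH as controls and the 3 genes nearest to the profile of the member with the largest difference. Genes named beyond this rule were chosen after their values were seen, mostly as relatives of a named gene. 1 planned ratio and some genes of the lists are not reported here. ARAF, BRAF and MAP2K1 have annotated pseudogene copies, so reads that align to a copy as well could be lost, which was not tested. Tables were made with Python 3.11.15 and pandas 2.3.3.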

Additional observations from a re-analysis of the deposited data

How the results depend on the processing

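HRAS and MAP2K1 kept their direction and their call in all 13 alternatives, with log2 differences of -0.61 to -0.48 and of 0.62 to 0.66. NRAS, BRAF, MAP2K2 and MAPK3 were called in none of them. ARAF was called with genes under a mean of 1 FPKM left out (0.16, adjusted p = 0.0497), where fewer genes were tested, and with median-of-ratios scaling (0.16, adjusted p just under 0.05); the cause of the latter was not tested. A fit with a replicate block called 2881 genes, against 3755 without it. The block uses numbers shared by replicates 1 and 2 of the groups. Same-numbered libraries did not deviate together (r = -0.086 and -0.017), so the numbers were not taken to pair libraries. The 2 si-circVAMP3 libraries deviate from their mean as mirror images, so these r values are not independent. The block changed no call of the 7 genes. It gave the same log2 differences as the fit without si-SCR replicate 3 (-0.58 for HRAS and 0.66 for MAP2K1), so their sizes are not separate checks. Leaving out 1 library gave 1265 to 3993 calls, 5 to 14 pathway genes higher and 9 to 22 lower, and 561 to 848 calls with the second condition, where the lone si-circVAMP3 library is assumed to vary like the si-SCR libraries. A pseudocount of 1 gave 334 calls with the second condition, against 795. Of 42 other called genes among the lists, controls and nearest profiles, 15 were called in every alternative, 27 lost the call in at least 1, and 0 reversed.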
